A study of Mus musculus with 12 samples.

Results

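The genes described here are 10 heat shock proteins and chaperones, namely Hspa1a, Hspa1b, Hspa5, Hspa8, Hspb1, Hsp90aa1, Hsp90ab1, Dnajb1, Hsph1 and Cryab. They were taken by symbol from the 22609 gene symbols in the count tables of tongue-innervating trigeminal ganglion (TG) neurons, and reads for each of the 10 were present in all 12 libraries. Neurons had been labeled from the tongue with WGA (wheat germ agglutinin), a lectin dye carried back along axons to their somata, and after enzymatic digestion of the ganglia bright cells were flow-sorted and their RNA was sequenced. The 4 groups of 3 libraries were MN and FN, from normal males and females, and MT and FT, from males and females with a tumor, all from Balb/c athymic nude mice, a strain that lacks a thymus and accepts human cells. Tumor mice carried HSC3 cells in the tongue, an established line of human oral squamous cell carcinoma. The tracer was given on day 13 and ganglia were taken on day 15 after inoculation. A normal sample pooled 4 TGs from 2 mice, and a tumor sample pooled 4 TGs of the injected side from 4 mice, so the tumor cannot be told apart from the side taken and the number of mice pooled. The sample labels state that normal mice were given no cells, whereas the methods of the study describe an injection of human normal oral keratinocytes, so the tongue condition of MN and FN was not settled here.

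Chaperones bind proteins that are unfolded or newly made and help them to fold, and many are made in larger amounts after heat, oxidative or mechanical stress through the transcription factor HSF1. Members of the HSP70 family hold and release unfolded chains with the help of J-domain proteins, which start the ATP cycle, and of HSP110 proteins, which exchange the nucleotide. HSP90 proteins finish the folding of kinases and hormone receptors, small heat shock proteins hold partly unfolded chains without using ATP, and BiP, encoded by Hspa5, does the work of HSP70 in the endoplasmic reticulum. In sensory neurons, Hspb1 is known for supporting survival and axon growth after nerve injury. Stress-inducible members, above all Hspa1a and Hspa1b, also respond to the digestion of tissue into single cells.

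Promoters are shown first, for the members found to carry the letters that HSF1 is known to bind, GAANNTTC or TTCNNGAA. Each motif reads the same on both strands. Promoters from RefSeq (mouse build GRCm38.p6) were matched for 6 of the 10 members, and the 150 bases before the start of transcription are given for the 4 that held a match in the 250 bases searched, with the match in capitals.

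Hspa1a, chr17:34972157-34972306, minus strand: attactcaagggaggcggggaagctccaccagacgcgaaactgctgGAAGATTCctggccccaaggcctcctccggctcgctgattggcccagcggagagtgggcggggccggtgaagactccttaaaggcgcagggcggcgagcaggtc
Hspa1b, chr17:34959239-34959388, minus strand: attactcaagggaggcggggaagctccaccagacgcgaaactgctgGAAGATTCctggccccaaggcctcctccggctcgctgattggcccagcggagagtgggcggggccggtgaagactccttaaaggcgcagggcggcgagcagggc
Hspb1, chr5:135887769-135887918, plus strand: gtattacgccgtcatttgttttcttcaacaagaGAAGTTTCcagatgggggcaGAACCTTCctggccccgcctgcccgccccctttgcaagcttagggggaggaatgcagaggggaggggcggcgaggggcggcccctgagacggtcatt
Hsph1, chr5:149636337-149636486, minus strand: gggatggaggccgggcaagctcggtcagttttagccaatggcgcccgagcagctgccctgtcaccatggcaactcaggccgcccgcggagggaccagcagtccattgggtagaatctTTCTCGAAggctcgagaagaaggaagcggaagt

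The match began 104 bases before the start in both Hspa1a and Hspa1b, 117 and 97 bases before it in Hspb1, and 33 bases before the upstream one of 2 annotated starts in Hsph1. Neither Hspa5 nor Dnajb1 held these letters in the 250 bases before its starts. Of the 32851 promoters in the table, 12.8% held at least 1 of these motifs in the same length, as did 14.5% of genes. Hspa1a and Hspa1b were 98.8% identical over 250 bases and differed at 3 of them. Such a match describes the letters and does not show that a factor was bound in these neurons.

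Hspa1a and Hspa1b lie side by side on chromosome 17 of mm9, the build the authors aligned to, at chr17:35106144-35109069 and chr17:35093381-35096183 on the minus strand, with 9960 bases between them and no intron in either gene model. The other members lie apart and have introns in GENCODE M1. On the plus strand of mm9 are Hspa5 at chr2:34627490-34632051, Hspa8 at chr9:40609067-40613283, Hspb1 at chr5:136363789-136365433, Dnajb1 at chr8:86132074-86135801 and Cryab at chr9:50560863-50564738. On the minus strand are Hsp90aa1 at chr12:111928815-111940938, Hsp90ab1 at chr17:45704724-45710220 and Hsph1 at chr5:150416862-150438951. Hspa1a and Hspa1b both encode inducible HSP70, and their coding sequences are nearly the same. Of the 50-base windows of the coding sequence, the read length used, only 15.2% of those of Hspa1a and 17.7% of those of Hspa1b occurred once in mm9, against 89.1% and 86.5% of windows in the untranslated parts. Counts of the pair therefore depend on how reads with several places were handled. The same held for Hspa8, where 8.52% of coding windows occurred once, for Hspb1 (15.6%) and for Hsp90aa1 (16.3%). Windows of Hspa5, Hsph1 and Cryab all occurred once, as did 99.3% of those of Dnajb1 and 92.8% of those of Hsp90ab1.

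**Figure D1:**
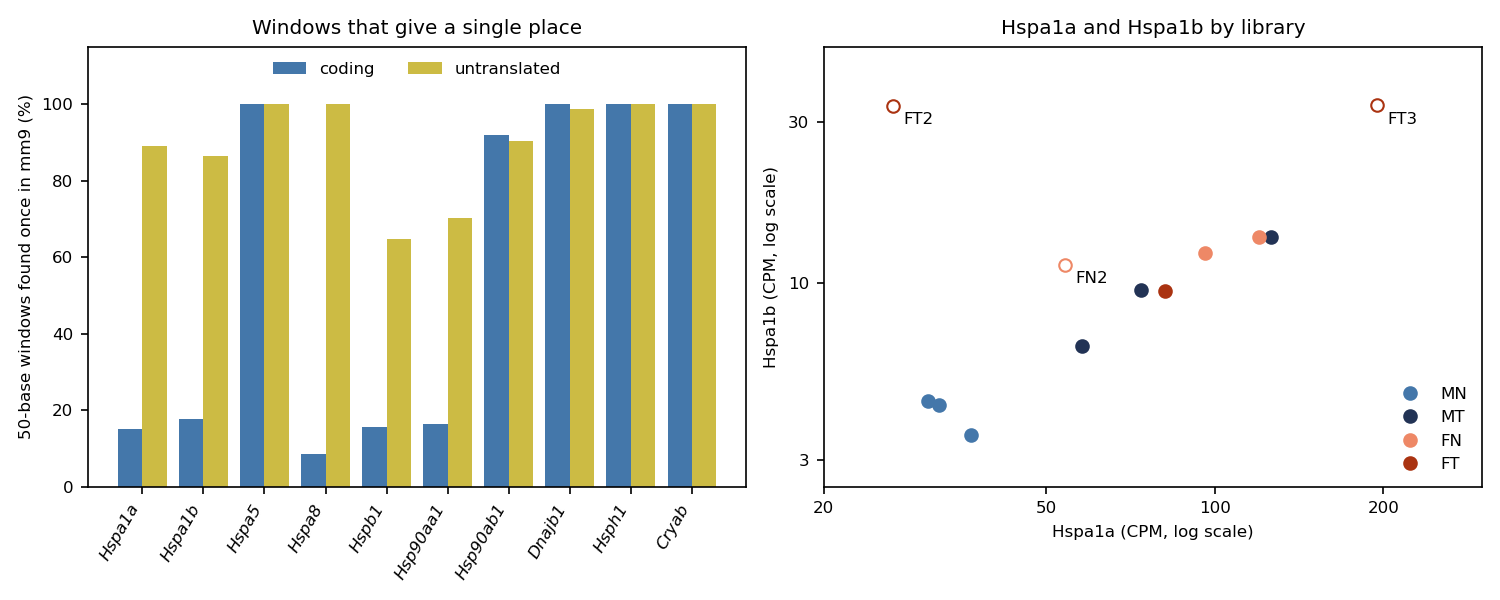
The left panel shows, for each gene, the percentage of 50-base windows of its coding (blue) and untranslated (yellow) sequence that occur once in mm9, and the right panel plots Hspa1b against Hspa1a in CPM on log axes, 1 point per library colored by group. The coding bars of Hspa1a, Hspa1b, Hspa8, Hspb1 and Hsp90aa1 are below 18%, and FT replicate 2 is the point where Hspa1b exceeds Hspa1a.

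Libraries held 4592891 to 8922011 reads on genes, and values are given as CPM, a count scaled to the reads on genes of its library. Reads mapped to several places were 43.0% to 45.5% of all reads in 9 libraries, but were 68.4% for FT replicate 2, 56.0% for FN replicate 2 and 52.6% for FT replicate 3. These 3 libraries also stood apart in most genes below, so the fitted values of the members and the counts over lists are also given without them, whereas counts of groups without overlap and likeness of pattern used all 12. Without them, in what is called the 9 libraries below, FN kept 2 libraries and FT kept 1, whose spread was then assumed to be that of the other groups. All 12 marker genes of sensory neurons were present in every group, with summed levels of 12641 to 29195 CPM over the 12 libraries. Genes within this sum went in opposite directions. Calca was 11272 CPM in FN replicate 2 and 7157 CPM in FT replicate 3, above its 3295 to 4589 CPM in MN and MT. Avil was 242.0 and 425.0 CPM in these libraries, below its 1431 to 1526 CPM in MN and MT. Markers of satellite glia, the cells that wrap the neurons, summed to 4228 to 5036 CPM in MN, 3585 to 5028 in MT, 8279 to 16518 in FN and 6720 to 18049 in FT.

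Together the 10 genes took 0.489% to 0.632% of the reads on genes in a library. Hsp90ab1, Hsp90aa1 and Hspa8, which cells also make without stress, supplied 74.1% to 83.03% of these reads, mostly through Hsp90ab1 (3276 to 4825 CPM). Hspa8 gave only 8.27 to 103.1 CPM, less than Hspa5 (187.5 to 489.7 CPM). Scaled to exon length (RPKM), Hsp90ab1 was the most abundant of the 10 in MN, at 1301 ± 38.3 RPKM (SD, n = 3). Hspb1 (142 ± 20.2), Hsp90aa1 (127 ± 6.10) and Hspa5 (122 ± 8.49 RPKM) followed within their spread of each other. Next came Cryab (60.6 ± 2.78) and Dnajb1 (50.3 ± 4.95 RPKM), and then Hsph1 (39.9 ± 0.987), Hspa8 (22.9 ± 0.369), Hspa1a (11.4 ± 1.07) and Hspa1b (1.47 ± 0.179 RPKM). When the 12-library mean was divided instead by the number of windows that occur once, Hspa1a went from 26.5 RPKM to 69.1 CPM per 1000 windows, above the 63.1 of Dnajb1. The order of genes with shared sequence was thus tied to how length was counted.

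Hspa1a was low in the normal male neurons and higher in both the male tumor and the female normal neurons. The MN libraries gave 32.2, 30.7 and 36.7 CPM, and the MT libraries gave 73.8, 57.8 and 125.7 CPM. The FN libraries gave 119.7, 54.02 and 96.2 CPM. All MT and all FN libraries were above all MN libraries. In FT the values were 81.5, 26.6 and 194.9 CPM, so that this group spanned the whole range, with FT replicate 2 the lowest of the 12 libraries and FT replicate 3 the highest.

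Hspa1b had far fewer reads than Hspa1a in every library but 1. Its MN libraries gave 4.36, 4.48 and 3.56 CPM, its MT libraries 9.56, 6.53 and 13.7 CPM, and its FN libraries 13.7, 11.4 and 12.3 CPM. The FT libraries gave 9.47, 33.5 and 33.6 CPM. As for Hspa1a, no MT or FN library fell into the range of MN, and here FT also lay above MN throughout. The share of all genes that separate FT from MN was not counted. The ratio of Hspa1b to Hspa1a was 0.0969 to 0.146 in the 9 libraries, 0.210 in FN replicate 2 and 0.172 in FT replicate 3, but 1.26 in FT replicate 2, where 122 reads of Hspa1a and 154 of Hspa1b were counted. The sum of both genes was 35.2 to 40.3 CPM in MN, 64.3 to 139.4 in MT, 65.4 to 133.4 in FN and 60.1 to 228.5 in FT, and every library of the other 3 groups exceeded every MN library by this sum.

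Hspa8 and Hspa5 differed from this pattern. Hspa8, the constitutive HSP70, was 94.04 to 97.02 CPM in MN and 94.2 to 102.5 CPM in MT. Its FN values were 90.8, 39.0 and 103.1 CPM and its FT values 102.2, 8.27 and 99.0 CPM. Apart from FN replicate 2 and FT replicate 2, the highest value was 1.14 times the lowest. Hspa5 gave 460.6, 424.6 and 401.4 CPM in MN and 440.6, 457.5 and 423.6 CPM in MT. In females its FN values were 489.7, 187.5 and 484.9 CPM and its FT values 473.1, 236.2 and 307.2 CPM, and again the low values were those of the 3 libraries that stood apart.

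Dnajb1, the J-domain protein that works with inducible HSP70, was 122.5, 137.2 and 112.9 CPM in MN and 163.4, 147.8 and 154.6 CPM in MT, without overlap. It was 151.3, 94.2 and 134.4 CPM in FN and 136.8, 95.1 and 258.4 CPM in FT. Hsph1, the HSP110 protein that exchanges the nucleotide of HSP70, had its highest values in MN, at 286.1, 284.5 and 273.3 CPM. In MT it was 194.7, 206.7 and 168.9 CPM, in FN 191.2, 39.1 and 189.98 CPM, and in FT 170.1, 192.0 and 63.7 CPM. Every MT, FN and FT library was below each MN library, the opposite order to that of the Hspa1a and Hspa1b sum. For neither order was the share of all genes counted.

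The HSP90 pair varied less. Hsp90ab1, the constitutive form, was 3777 to 4004 CPM in MN, 3513 to 3829.9 in MT, 3276 to 3639 in FN and 3577 to 4825 in FT. Hsp90aa1, the form that stress can raise, gave 507.9, 518.9 and 473.0 CPM in MN and 466.7, 479.8 and 393.0 CPM in MT. Its FN libraries gave 358.4, 435.6 and 396.1 CPM and its FT libraries 432.2, 412.2 and 642.9 CPM. For both genes all FN libraries were below all MN libraries.

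Both small heat shock proteins had their highest values in libraries that stood apart. Cryab, known from the lens and from glia and muscle, gave 72.6, 68.1 and 74.6 CPM in MN and 49.8, 56.8 and 78.9 CPM in MT. Its FN libraries gave 114.9, 269.9 and 105.1 CPM and its FT libraries 115.2, 186.6 and 326.0 CPM. All 6 female libraries were thus above all 6 male libraries, but the share of all genes in such an order was not counted. Hspb1 was 123.0 to 163.3 CPM in MN and 155.7 to 197.0 CPM in MT. It was 134.1, 486.3 and 167.1 CPM in FN and 146.1, 302.0 and 322.1 CPM in FT, and its 3 highest values belonged to those same libraries. Summed markers of satellite glia were also higher in each female library than in any male library, and their part in the level of Cryab was not tested.

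**Figure D2:**
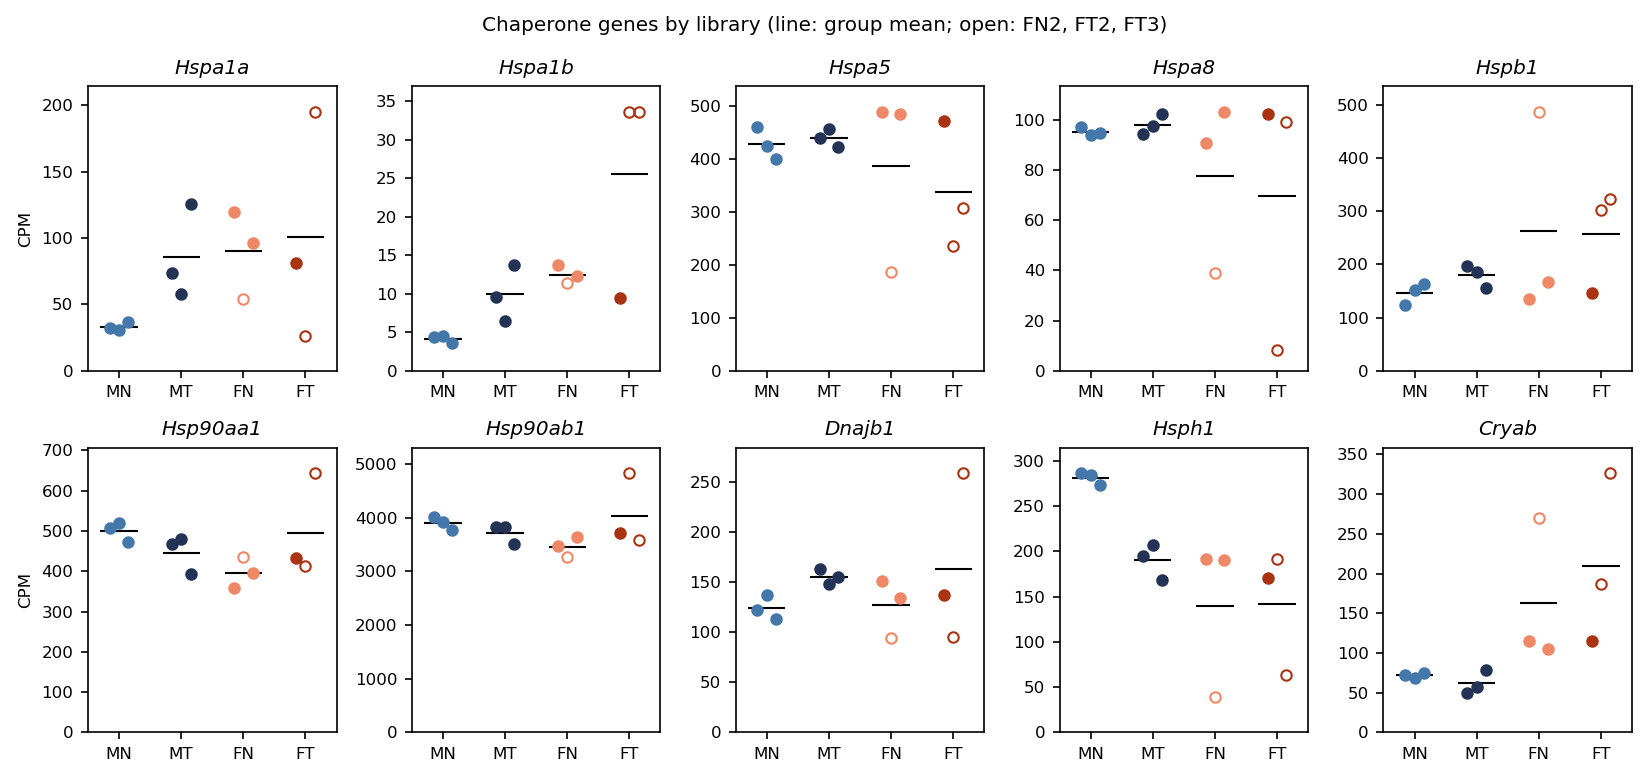
Each panel shows 1 gene, with CPM on the vertical axis starting at 0, 1 point per library in the groups MN, MT, FN and FT, a line at the group mean and open points for FN replicate 2, FT replicate 2 and FT replicate 3. The group means of Hspa1a and Hspa1b are lowest in MN, that of Hsph1 is highest in MN, and the open points are often the most distant of their group.

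Whether the tumor changed these genes in males was asked by comparing MT with MN. The counts of all 12 libraries were fitted together in edgeR, and its quasi-likelihood p values were adjusted after Benjamini and Hochberg over all genes tested. Hspa1a was higher in MT by 1.38 ± 0.52 (log2 fold change ± SE, edgeR, adjusted p = 1), or 85.8 ± 35.5 CPM against 33.2 ± 3.13 CPM (SD, n = 3). Hspa1b was higher by 1.27 ± 0.50 (edgeR, adjusted p = 1). No member passed an adjusted p of 0.05, as 0% of the 13835 genes did, while these 2 members, and 0.426% of genes, had an unadjusted p under 0.05. DESeq2 gave the same 0 and 2 members, the latter against 0.499% of genes, and limma-voom with sample quality weights gave an adjusted p of 0.019 for Hspa1a, the one member among the 0.34% of genes it called. The study named Hspa1a from these same libraries, so its rise here is not independent evidence.

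The DEG criteria of the study add to an unadjusted p under 0.05 a change of over 1.5-fold, and an RPKM over 5 in at least 1 group. Here the RPKM was the group mean and the p came from edgeR unless another fit is named. The study used DESeq, so the genes that meet the criteria can differ. Hspa1a met them, against 0.152% of genes, while Hspa1b, at 3.54 RPKM in MT, did not reach the level. Without MN replicate 1, MN replicate 2 or MT replicate 3, Hspa1a no longer met them, with a log2 fold change of 1.36, 1.33 and 1.03 in turn. When the 6 male libraries were fitted alone, the standard error of Hspa1a was 0.23 in place of 0.52, and 5 members had an unadjusted p under 0.05, against 6.92% of genes. Hspa1a (adjusted p = 0.107), Hspa1b (adjusted p = 0.334), Dnajb1 (log2 fold change 0.34) and Hspb1 (0.31) were higher in edgeR, and Hsph1 was lower (-0.55 ± 0.11, adjusted p = 0.202). In the 9 libraries the same 5 had an unadjusted p under 0.05, against 7.25% of genes, and none had an adjusted p under 0.05, against 0.0209%, with 0.0743 for Hspa1a the lowest.

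Groups did not overlap for Hspa1a, Hspa1b and Dnajb1, which were higher in MT, and Hsph1, which was lower, or 4 of the 10 members against 13.1% of genes. Among the other members the log2 fold change was 0.32 for Hspb1, 0.06 for Hspa5, 0.06 for Hspa8, -0.05 for Hsp90ab1, -0.14 for Hsp90aa1 and -0.20 for Cryab, each within its standard error. Hspa1a in MT was highest in replicate 3, the library with 175.0 CPM of summed macrophage markers against 9.56 and 17.1 CPM in the other MT libraries and 16.9 to 26.6 CPM in MN. Immediate early genes, such as Fos and Jun, are known to be raised by dissociation. Their sum was 1677 to 2160 CPM in MN and 2375 to 2955 CPM in MT, without overlap. Fos alone was 215.3 to 340.3 CPM in MN and 374.0 to 477.6 CPM in MT, without overlap. Jun overlapped, at 399.5 to 492.0 CPM in MN and 413.5 to 508.8 CPM in MT. The part of the macrophage or the immediate early list in the higher Hspa1a was not tested. In bulk samples, fewer cells of a type and less RNA per cell cannot be told apart.

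Normal females and normal males were compared to ask how the sexes differ without a tumor. In FN against MN, Hspa1a was higher by 1.49 ± 0.52 (log2, edgeR, adjusted p = 0.809) and Hspa1b by 1.69 ± 0.51 (adjusted p = 0.809). Cryab was higher by 1.38 ± 0.50 (edgeR, adjusted p = 0.809). These 3 had an unadjusted p under 0.05, against 5.57% of the 13360 genes left without X and Y, and 0 members and 0% of genes passed an adjusted p of 0.05. Hspa1a and Cryab met the DEG criteria, as did 3.69% of genes, and without FN replicate 2 only Hspa1a did. Hsph1 was lower by 1.00 on the log2 scale and Hspb1 higher by 1.07, both short of that threshold.

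In the 9 libraries, where FN was represented by replicates 1 and 3, Hspa1a was higher by 1.65 ± 0.24 (log2, edgeR, adjusted p = 0.0309) and Hspa1b by 1.60 ± 0.29 (adjusted p = 0.0443). They were 2 of 10 members past an adjusted p of 0.05, against 0.391% of genes. Hsph1 was at -0.61 ± 0.12 (edgeR, adjusted p = 0.054), Cryab at 0.56 ± 0.15 (adjusted p = 0.113) and Hsp90aa1 at -0.46 ± 0.12 (adjusted p = 0.119), so that 5 members in all had an unadjusted p under 0.05, against 15.2% of genes. The log2 difference of Hspb1 was -0.01 in the 9 libraries in place of 1.07 in the 12. When FN replicate 2 alone was left out, Cryab was at 0.58 and Hspb1 at 0.0068. With sample quality weights in limma-voom, which weigh down libraries that scatter, Hspa1a, Hspa1b and Cryab were higher and Hsph1 and Hsp90aa1 lower at an adjusted p under 0.05, against 5.99% of genes, and DESeq2 called 0 members and 20 genes.

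Over all 12 libraries, Cryab, Hspa1a and Hspa1b were higher and Hsp90aa1, Hsp90ab1 and Hsph1 lower in FN than in MN without overlap, or 6 of 10 members against 19.8% of genes. Both this comparison and that of MT with MN rest on the same 3 MN libraries, so the higher Hspa1a and Hspa1b and lower Hsph1 in the 2 comparisons are not separate observations. Immediate early genes summed to 2979 to 3193 CPM in FN, above all MN and MT libraries, but not each gene followed. Fos was 600.4, 566.4 and 483.6 CPM in FN against 215.3 to 340.3 CPM in MN, without overlap. Jun overlapped, at 469.1, 357.8 and 489.3 CPM in FN against 399.5 to 492.0 CPM in MN. Macrophage markers, all 10 of them present in FN as a group though not in every library, summed to 112 to 258 CPM in FN. Their genes differed in FN replicate 2. There Csf1r was 1.96 CPM, below its 2.30 to 6.61 CPM in MN. C1qa was 25.7 CPM there, above its 1.68 to 3.80 CPM in MN. The part of the immediate early and macrophage lists in the differences of Hspa1a, Hspa1b and Hsph1 was not tested.

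**Figure D3:**
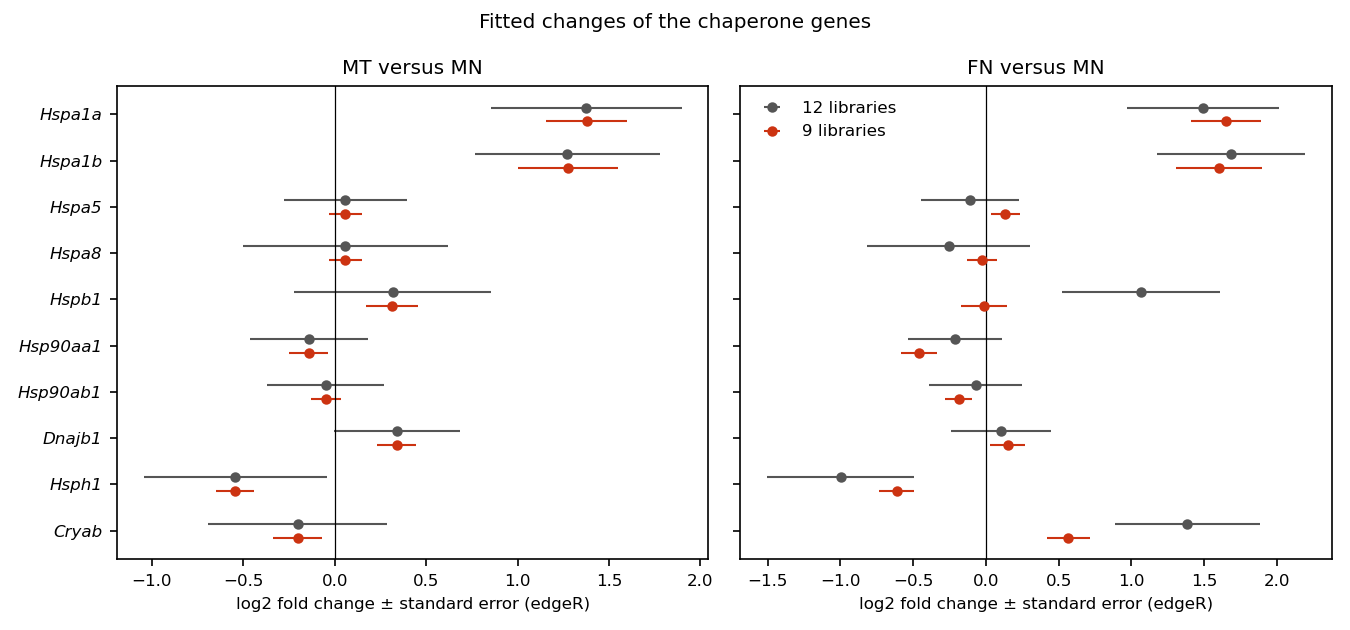
Points are the log2 fold changes of the 10 genes, with bars for the standard error from edgeR, in a panel per comparison and with a color each for the fit of 12 libraries and that of 9. Hspa1a and Hspa1b lie above 1 in both panels and both fits, whereas Hspb1 in FN versus MN is at 1.07 with 12 libraries and -0.01 with 9.

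The tumor in females was addressed by FT against FN, where the groups overlapped for all 10 members, against 2.49% of genes that did not. Hspa1b was the one member with an unadjusted p under 0.05 (log2 fold change 1.18 ± 0.49, edgeR, adjusted p = 0.994), against 3.82% of genes. It also met the DEG criteria, as 2.17% of genes did. No member, and 0% of genes, passed an adjusted p of 0.05, also in DESeq2 and limma-voom. At an unadjusted p under 0.05, DESeq2 gave Hspa1b, against 4.93% of genes, whereas limma-voom gave Cryab and not Hspa1b, against 4.08%. Hspa1a was at 0.22 ± 0.51 and Cryab at 0.36 ± 0.49. The study lists Cryab among its DEGs higher in FT than in FN, from DESeq on these same libraries, unlike the edgeR fit here.

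The rise of Hspa1b rested on FT replicates 2 and 3. In FT replicate 1 it was 9.47 CPM, below the 3 FN libraries, and in the 9 libraries its log2 fold change was -0.45 ± 0.39 (edgeR, adjusted p = 0.997). There Hspa1a was at -0.40 ± 0.32, and no member had an unadjusted p under 0.05, against 4.66% of genes. The summed immediate early genes were lowest of all libraries in FT replicate 2 (1636 CPM) and highest in FT replicate 3 (3742 CPM). Hspa1a was also lowest and highest in these 2 libraries. Within the list, Fos was highest in FT replicate 3 (823.8 CPM), but Jun there was 364.8 CPM, below all MN libraries (399.5 to 492.0 CPM). The part of the list in the level of Hspa1a was not tested.

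The sexes were also compared in their response to the tumor, as the log2 change from FN to FT minus that from MN to MT. For Hspa1a this difference was -1.15 ± 0.72 (edgeR, adjusted p = 1.00), for Hspa1b -0.09 ± 0.68 and for Cryab 0.56 ± 0.69. No member reached an unadjusted p under 0.05, against 1.47% of genes, or met the DEG criteria, against 0.614%, or an adjusted p of 0.05, against 0%. DESeq2 likewise gave 0 members an unadjusted p under 0.05, against 2.05% of genes, and limma-voom gave Cryab, where the difference was above 0, and Hspa1a, where it was below 0, against 4.77% of genes. In the 9 libraries the difference was -1.78 ± 0.40 for Hspa1a (edgeR, adjusted p = 0.934) and -1.73 ± 0.48 for Hspa1b (adjusted p = 0.934), the 2 members with an unadjusted p under 0.05, against 5.1% of genes. That fit held a single FT library, and neither value passed the adjustment.

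Between tumor-bearing females and males, in FT against MT, Cryab was the member that separated the groups. It was 209.3 ± 107.2 CPM in FT and 61.8 ± 15.2 CPM in MT, a log2 fold change of 1.94 ± 0.51 (edgeR, adjusted p = 0.321). Hspa1b was higher by 1.59 ± 0.50 (adjusted p = 0.321) with overlapping groups. These were the 2 members with an unadjusted p under 0.05, against 12.1% of genes, and both met the DEG criteria, as did 8.14% of genes. In edgeR 0 members and 0% of genes passed an adjusted p of 0.05, while DESeq2 gave Cryab an adjusted p of 0.0172 among 1.86% of genes and limma-voom called none. Without FT replicate 1, Cryab and Hspa1b were at 2.27 and 2.02 (edgeR, adjusted p = 0.0363 for each). The groups did not overlap for Cryab alone, 1 of 10 members against 17.6% of genes. In the 9 libraries Cryab was at 0.84 ± 0.18 (edgeR, adjusted p = 0.3), the one member among 8.27% of genes with an unadjusted p under 0.05, and Hspa1b was at -0.13 ± 0.37. Satellite glia markers, given above, separated these groups as Cryab did, and their part was not tested.

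**Figure D4:**
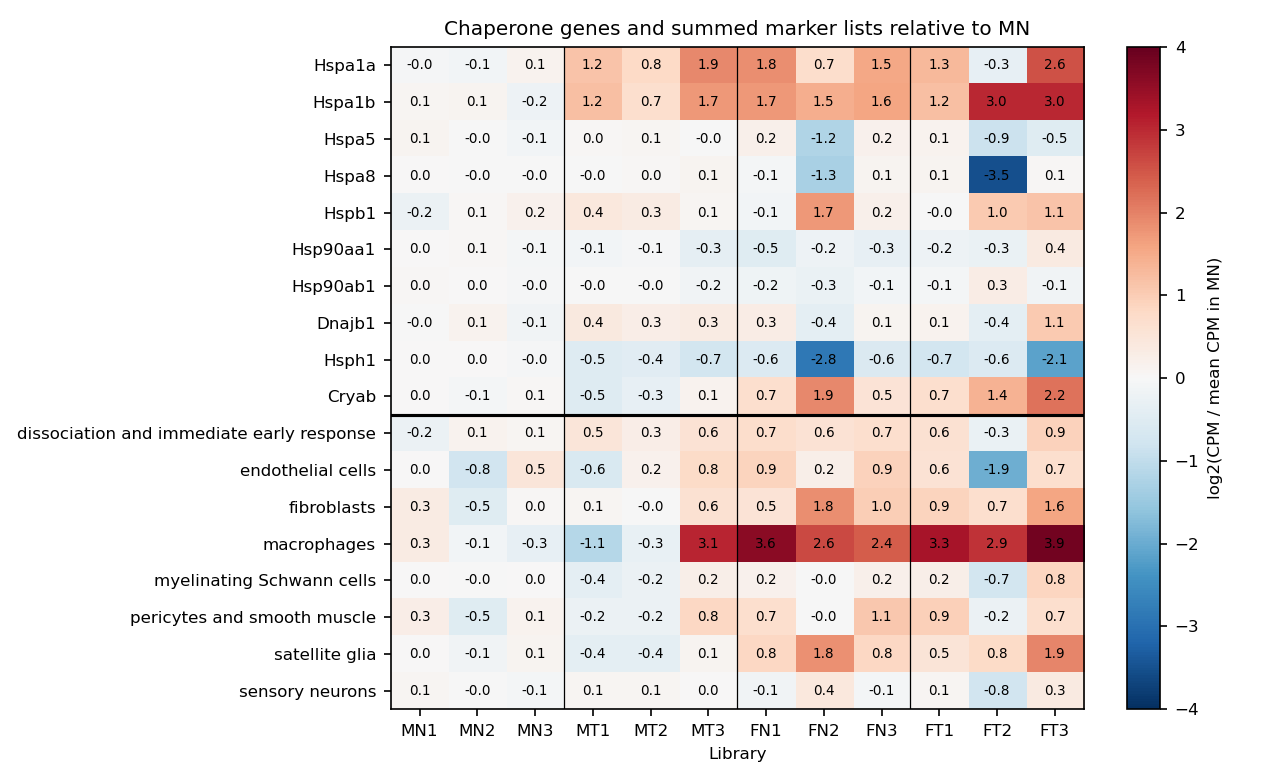
Colors give the log2 ratio of the CPM in each library (columns) to the mean CPM of MN, for the 10 genes and for the summed levels of marker lists (rows), on a scale from -4 to 4. Hspa1a, Hspa1b and the immediate early list are above MN in all MT and FN libraries, Hsph1 is below MN in them, and FN replicate 2, FT replicate 2 and FT replicate 3 hold most of the deep colors.

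Other genes of the same machinery were grouped in lists by their role. Lists of HSP70 and HSP110 relatives, HSP90 relatives, J-domain co-chaperones, co-factors, small heat shock proteins, chaperonins, heat shock factors and genes of folding in the endoplasmic reticulum held 88 further genes, of which 86 had enough reads to be tested. In MT against MN, 0 of the 86 had an unadjusted p under 0.05 in the edgeR fit of 12 libraries, against 0.426% of all genes, and their median log2 fold change was -0.04, against 0.06 over the 10 members and 0.01 over all genes. In FN against MN, 2 were higher and 0 lower at that threshold, against 5.57% of genes, with a median of -0.11 against 0.02 over the members and 0.07 over all genes. In FT against FN, 3 were higher and 0 lower, against 3.82% of genes, with a median of 0.01 against 0.28 and -0.06. In FT against MT, 5 were higher and 1 lower, against 12.1% of genes. In the 9 libraries more of the 86 were lower at that threshold. There 2 were higher and 3 lower in MT against MN (7.25% of all genes), 2 higher and 7 lower in FN against MN (15.2%), 1 higher and 2 lower in FT against FN (4.66%), and 1 higher and 7 lower in FT against MT (8.27%). The 3 lower in MT were Bag2, Dnajc3 and Hspa12a and the 2 lower in FT than in FN were Canx and Dnaja1, named here after their values were seen. None of the 86 had an adjusted p under 0.05 in edgeR with 12 or 9 libraries in any of these comparisons.

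By list, the 24 genes of folding and the unfolded protein response in the endoplasmic reticulum, where BiP acts, had a median log2 fold change of -0.07 in MT against MN and 0.01 in FN against MN, with 0 at an unadjusted p under 0.05 in either. The 20 J-domain co-chaperones, relatives of Dnajb1, had medians of -0.07 and -0.22, and the 10 chaperonins, which fold actin and tubulin among others, 0.09 and -0.09, with 0 genes at that threshold. The 4 small heat shock proteins tested, relatives of Hspb1 and Cryab, had medians of 0.25 and 0.91. All 4 were above 0 in FN against MN, and 1 of them, Hspb7, had an unadjusted p under 0.05. In the 9 libraries their median in FN against MN was 0.25, with 3 of the 4 above 0.

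The genes named next had the largest rises of these lists at an unadjusted p under 0.05 in the fit of 12 libraries. Bag1, a co-factor that exchanges the nucleotide of HSP70, was higher in FN than in MN by 1.87 ± 0.68 (log2, edgeR, adjusted p = 0.809), but its 505 CPM in FN replicate 2 stood against 85.7 and 65.6 CPM in the other FN libraries, and in the 9 libraries it was at 0.01. Hspb7, a small heat shock protein of heart and muscle, was higher in FN by 1.56 ± 0.68 (adjusted p = 0.809), at 3.52, 1.17 and 3.84 CPM against 0.57 to 1.23 CPM in MN, and by 1.85 in the 9 libraries. In limma-voom Hspb7 was higher by 1.88 with an adjusted p = 0.00826. St13, the HSP70-interacting co-chaperone Hip, was higher in FT than in FN by 2.26 ± 0.70 (edgeR, adjusted p = 0.994), with 546.5 CPM in FT replicate 2 against 82.7 and 60.5 CPM in the other FT libraries. Hspb2, which lies beside Cryab and is known from muscle, was higher in FT by 1.49 ± 0.67 (adjusted p = 0.994), at 2.74, 18.9 and 10.9 CPM. Without the libraries that stood apart, St13 was at 0.27 and Hspb2 at -0.48. In the fit of 12 libraries no gene of these lists was lower at that threshold in MT against MN, FT against FN or FN against MN, unlike in the 9 libraries.

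**Figure D5:**
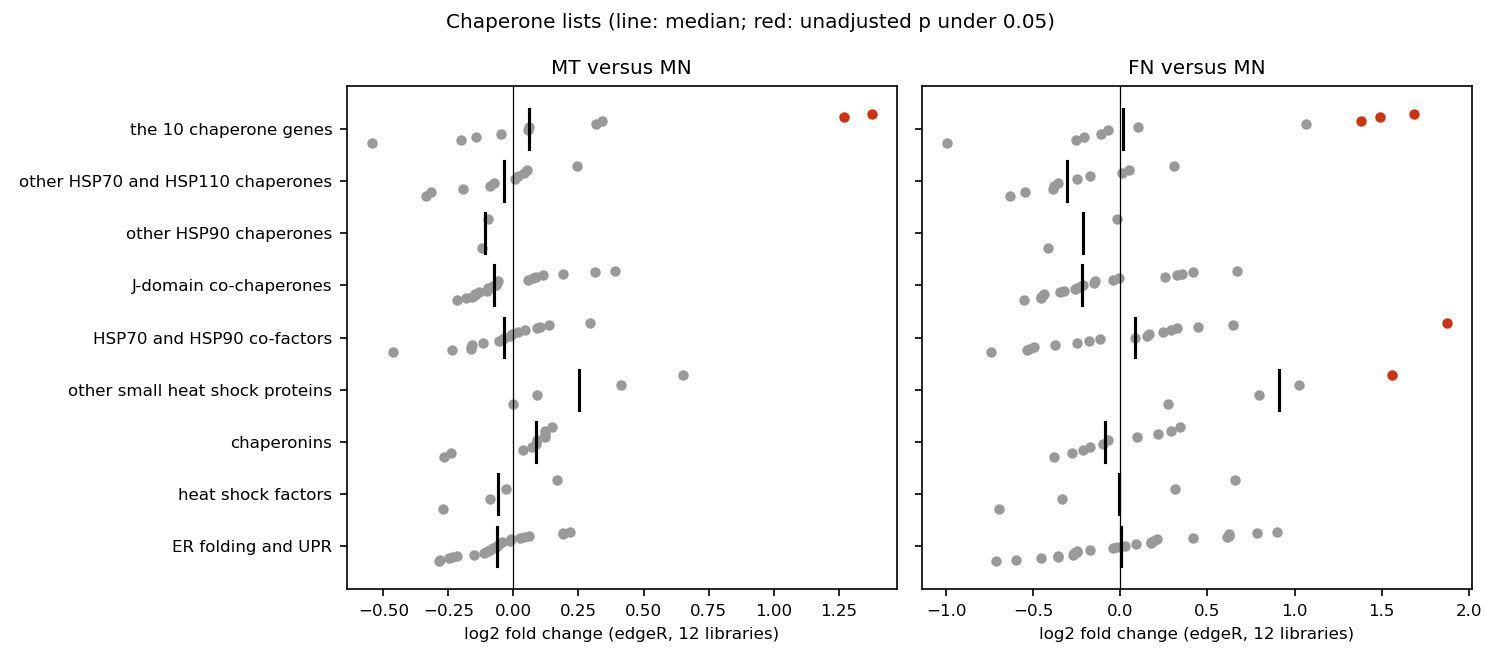
Each point is a gene of a chaperone list, placed by its log2 fold change in the edgeR fit of 12 libraries, in a panel per comparison, with a line at the median of each list and red for an unadjusted p under 0.05. Medians of the lists stay near 0 in MT versus MN, and the red points there are the 2 members Hspa1a and Hspa1b.

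Likeness of pattern was measured as the root mean square difference from Hspa1a in log2(CPM + 1), centered over the 12 libraries, among 9542 genes with a mean of at least 10 CPM. The nearest genes were Sdc4 (0.41), Ceacam1 (0.45), Sepp1 (0.48), Rhoj (0.48) and Ctsc (0.49), which encode a cell surface proteoglycan, an adhesion receptor, selenoprotein P, a small GTPase and a lysosomal protease. Of the other members, Dnajb1 was the nearest at rank 122 (0.63), whereas Hspa1b ranked 3418 and Hsph1 ranked 9211. The 12 libraries share their 3 outlying ones in all such measures, and likeness of pattern says nothing of shared function.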

How the data were processed

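RNA of sorted WGA-positive TG neurons was measured in 12 libraries, 3 each of MN, MT, FN and FT, grouped by their labels. Per the labels and the methods of the study, the authors made SMART-seq2 libraries, aligned single reads to mm9 with TopHat2 and deposited whole-number read counts per gene from HTSeq, without normalization. The gene annotation and the strand setting were not given in the sources used here. Reads without a gene name, 76.3% to 88.8% of a library, entered neither library sizes nor tests. Reads carry no molecular identifiers.

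From the counts, CPM and RPKM (exon lengths of GENCODE mouse release M1, matched for 21627 symbols) were computed. All 12 libraries entered the same fit, which had 1 mean per group, in edgeR (version 4.0.16, R version 4.3.3), with TMM, the filter filterByExpr (count of at least 10, total of at least 15), the quasi-likelihood test and the Benjamini-Hochberg adjustment. Both comparisons of females with males excluded genes of X and Y. P values measure the spread between pooled samples. DESeq2 1.42.0 (adjusted p given as NA kept as NA), limma-voom of limma 3.58.1, other size factors, no filter, a fold change over 2, other sets of libraries, a replicate block and leaving out each library were the alternatives. The tests were checked on simulated data. Windows of 50 bases from exons were searched in mm9, and other work was done in Python 3.11.15 (pandas 2.3.3, numpy 2.4.6, matplotlib 3.10.9, scipy 1.17.1).

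The genes named by rule are the 10 members and the 5 genes nearest to Hspa1a in pattern. Added are the 2 largest rises and falls of the other chaperone lists in MT versus MN, FT versus FN and FN versus MN. Those had an unadjusted p under 0.05 in the edgeR fit of 12 libraries. Bag2, Dnajc3, Hspa12a, Canx and Dnaja1 fall outside this rule and were named after their values in the 9 libraries were seen. Fos and Jun are named as examples of a marker list. Calca, Avil, Csf1r and C1qa are named as examples of other marker lists, after their values were seen. The members, lists and tests were chosen with earlier results of these data known. Correlations across genes between the deviations of same-numbered libraries ranged from -0.41 to 0.62, and no pair of groups had all 3 over 0.1, so the numbers were not taken as pairs. Promoters of Hspa8, Hsp90aa1, Hsp90ab1 and Cryab were not analysed here.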

Additional observations from a re-analysis of the deposited data

How the results depend on the processing

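The counts of members called, and the log2 fold changes named in the text, were recomputed under 21 alternatives. At an adjusted p under 0.05, the count of 0 became 1 in MT versus MN and 5 in FN versus MN with limma-voom, 2 in FN versus MN in the 9 libraries, and 1 in FT versus MT with DESeq2 (0 to 2 with each library left out in turn, the 2 without FT replicate 1). By the DEG criteria, the count in FT versus FN, 1 in the fit of 12 libraries, was 0 with only these groups, with the replicate block and in the 9 libraries, 2 in the 10 libraries without FN replicate 2 and FT replicate 2 (9.73% of genes, against 2.17% in the 12), and 0 to 3 with each library left out, the 3 without FN replicate 2. In FN versus MN it was 2, then 4 with DESeq2, 3 with limma-voom, 1 in the 10 libraries, and 1 to 3 with each library left out, the 1 without FN replicate 2. In MT versus MN it was 0 to 1, with 0 without MN replicate 1, MN replicate 2 or MT replicate 3. In FT versus MT it was 2, then 1 in the 9 libraries and 3 in the 10, with Hsph1 lower as the third. For the difference between the sexes the 0 became 2 with limma-voom and in the 10 libraries, 1 in the 9 libraries, and 0 to 1 with each library left out, the 1 without FN replicate 2 or FT replicate 3. The cause of these changes was not tested.

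Hspa1a and Hspa1b kept their direction in MT versus MN and FN versus MN under all alternatives. Directions turned as follows. Leaving out each library moved Hsp90ab1 in MT versus MN from -0.093 to 0.0157. In FN versus MN, Hspa5 was 0.15 with limma-voom, 0.13 in the 10 and in the 9 libraries, and -0.27 to 0.15 with each library left out, and Hspb1 was -0.00749 with limma-voom, -0.014 in the 10 and -0.0104 in the 9 libraries. In FT versus FN, Hspa1a was -0.0748 with limma-voom, -0.40 in the 9 libraries, -0.0237 with the replicate block and -0.69 to 0.64 with each library left out, Hspa1b was -0.45 and Hspb2 -0.48 in the 9 libraries, and Cryab was -0.0369 to 1.15 with each library left out. In FT versus MT, Hspa1a was -0.13 and Hspa1b -0.13 in the 9 libraries, and Hspa1a -0.58 to 0.75 with each library left out. For the difference between the sexes, Hspa1b was -0.50 to 0.34 with each library left out.

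Same-numbered libraries were not pairs by the labels, and the replicate block changed no other call than those given. Depth limited Hspb7 and Hspb2, at a few CPM, and Hspa1b, at 31 reads in the lowest library. Reads that Hspa1a and Hspa1b share cannot be assigned from these counts.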
